A study of Mus musculus with 4 samples.

Results

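Carbonic anhydrases are zinc enzymes that interconvert carbon dioxide and bicarbonate, and 10 of their genes were followed in mouse liver with and without JIB-04. The genes were Car1, Car2, Car3, Car4, Car5a, Car5b, Car8, Car12, Car13 and Car14, picked by symbol from a deposited expression table of 56748 genes. They have no relation to the nuclear receptor that is abbreviated CAR. The list was drawn up with results of these libraries already known, so the values below are a description and the adjusted p-values only place each gene among all genes tested.

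The livers came from NSG mice, an immunodeficient strain without mature lymphocytes, whose genotype the labels give as WT. JIB-04 is a small-molecule inhibitor of the Jumonji histone demethylases. The JIB-04 group was 2 mice dosed orally at 55 mg/kg, 5 times in all at 2 doses a week, and the untreated group was 2 mice that received no gavage of vehicle. The labels used here state neither age nor sex, nor the time from the last dose to collection. Every library came from a separate animal, so replicate error here is the difference between the 2 animals of a group. From 36469514 to 43283827 reads stood behind the 4 libraries. Alb, which encodes albumin and marks hepatocytes, was at 46658 and 46858 FPKM in untreated 1 and 2 and at 31689 and 22910.4 FPKM in JIB-04 1 and 2, so the labelled tissue was that of the libraries.

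By supplying bicarbonate and protons, carbonic anhydrases serve acid and base balance, transport of carbon dioxide, secretion of fluid into bile, and reactions that consume bicarbonate. The forms differ in where they work. Car1, Car2, Car3 and Car13 encode cytosolic enzymes, Car5a and Car5b mitochondrial ones, and Car4, Car12 and Car14 enzymes held on the outer face of the cell membrane. In liver, mitochondrial bicarbonate feeds the first steps of urea synthesis and of gluconeogenesis. Car8 encodes a related protein that lacks the enzyme activity and binds a receptor for inositol trisphosphate.

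Of the 10 genes 6 were tested, and 2 of these were called lower in JIB-04 liver, against 0.619% of all tested genes. They were Car14, a membrane form, and Car8, the form without activity. Neither call held when genes of all levels were tested. Car14 went from 7.29 ± 1.51 to 2.38 ± 0.120 FPKM and Car8 from 32.5 ± 0.366 to 20.2 ± 0.454 FPKM (SD, n = 2). Car3, the most abundant form, was at 364 ± 120 and 594 ± 133 FPKM and did not pass the test. Car5a, the mitochondrial form of liver, was at 48.4 ± 1.58 and 48.7 ± 2.17 FPKM. FPKM is the number of fragments scaled to gene length and to library depth, so levels of different genes can be set side by side.

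Of the 10 genes 6 had a mean of at least 1 FPKM over the libraries and entered the test, limma on log2(FPKM + 1) over 10819 genes, where a call needed a p below 0.05 after Benjamini-Hochberg adjustment. Of these 6 genes 2 were called in either direction, against 2.14% of all tested genes. Both were called lower, against 0.619% of all tested genes, and 0 were called higher by limma, against 1.53%. At an unadjusted limma p under 0.05, 1 of the 6 was higher (Car3) and 3 were lower (Car2, Car8 and Car14), where 15.5% of all tested genes were below that p, 9.06% with JIB-04 higher and 6.47% with JIB-04 lower. Voom on recovered reads called 0 of the 6 higher, against 3.06% of all tested genes, and 2 lower (Car8 and Car14), against 1.98%. The median log2 change of the 6 was -0.22, against 0.01 over all tested genes. In 4 of the 6 the groups did not overlap, 3 with JIB-04 lower and 1 with JIB-04 higher. Of all tested genes 46.4% had groups without overlap, 21.8% with JIB-04 lower and 24.6% with JIB-04 higher. Because the genes were listed with these changes known, no inference about the family is drawn from these counts.

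**Figure D1:**
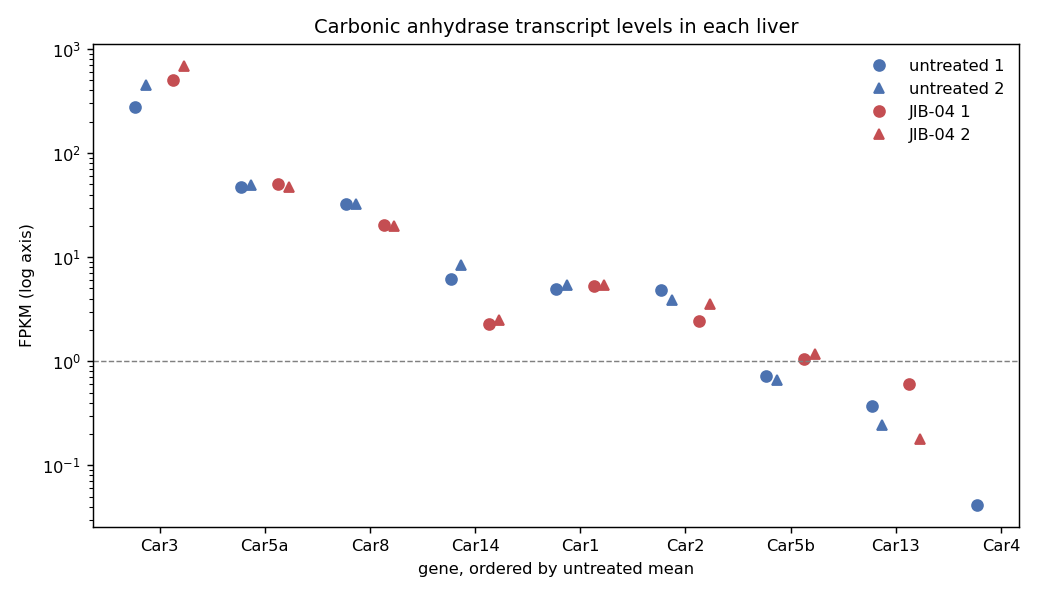
FPKM on a log axis for 9 of the genes in each liver, with 1 point per mouse and genes ordered by the untreated mean. Values of 0 are not drawn, Car12 is left out because it had none above 0, and the dashed line is the minimum mean of 1 FPKM for testing. Car3 lies between 279 and 688 FPKM, above every other form in all 4 libraries.

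In untreated liver the order of levels was Car3, Car5a, Car8, Car14, Car1, Car2, Car5b and Car13, followed by Car4, with 3 reads, and Car12, with none. Among the first 8 of these genes, the untreated values of neighbours in the order did not overlap. The narrowest step was between Car1, with a lowest value of 4.94 FPKM, and Car2, with a highest value of 4.82 FPKM. In JIB-04 liver Car14 stood behind Car1 and Car2. Its values of 2.29 and 2.46 FPKM overlapped there with the 2.42 and 3.55 FPKM of Car2, so the order of those neighbours was within their spread.

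Car3 made up 74.2% and 81.7% of the summed FPKM of the 10 genes in the untreated livers. In the JIB-04 livers its share was 85.9% and 89.6%. The sum was 463 ± 122 FPKM in untreated and 675 ± 131 FPKM in JIB-04 liver (SD, n = 2). Without Car3, the other 9 genes summed to 97.1 and 100.3 FPKM in untreated and to 82.3 and 79.7 FPKM in JIB-04 liver, 0.820 times the untreated mean. Most of that difference lay in Car8 and Car14. In bulk liver, fewer cells of a type and less RNA per cell cannot be told apart.

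**Figure D2:**
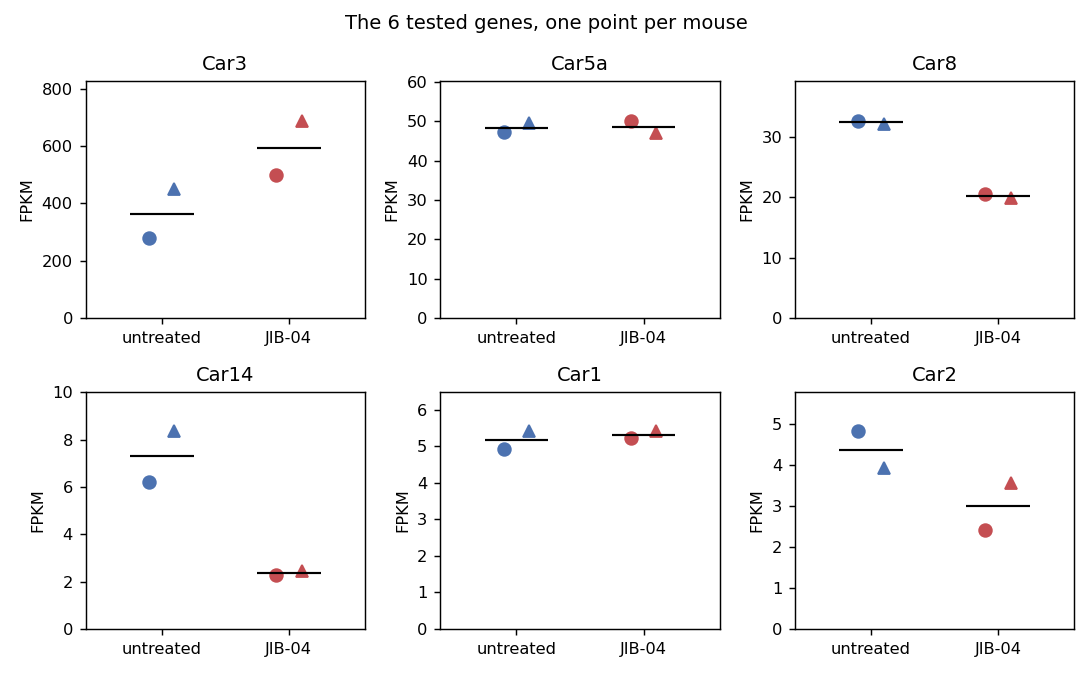
FPKM of the 6 tested genes on linear axes from 0, with 1 point per mouse (circle, replicate 1; triangle, replicate 2) and a black line at each group mean. The groups are apart for Car14, Car8, Car2 and Car3 and overlap for Car5a and Car1.

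Car14 encodes a transmembrane enzyme with its active site outside the cell, known from the hepatocyte membrane, kidney and brain. Its level was 6.23 and 8.36 FPKM in untreated 1 and 2 and 2.29 and 2.46 FPKM in JIB-04 1 and 2, from 581, 803, 250 and 230 reads. Both JIB-04 livers were thus below both untreated livers, and the untreated pair was the more scattered. The untreated mean was 3.07 times the JIB-04 mean, and the log2 change was -1.28 (SE 0.155, limma adjusted p = 0.0139). Only 34 of the 10819 tested genes, Car14 included, had a change this low or lower. Leaving out JIB-04 1 (adjusted p = 0.144) or JIB-04 2 (0.147) ended the call, as did testing with no minimum level (0.181), and the lowest adjusted p of any alternative was 0.000571. The gene (ENSMUSG00000038526) lies on the minus strand of chromosome 3 from 95805080 to 95812003 in GRCm39 and shares 521 bases with Aph1a on the plus strand. Whether counting used strand is not stated, so reads in that stretch cannot be assigned. Aph1a, a subunit of gamma-secretase, was at 16.2 and 14.4 FPKM on average in untreated and JIB-04 liver (adjusted p = 0.642). Within 50 kb of Car14 lay 11 other genes, of which 5 were tested and 0 were called by limma or voom. At an unadjusted limma p under 0.05 was 1 of them, Ciart, against 15.5% of all tested genes. Ciart was at 9.85 and 13.6 FPKM in untreated and at 8.04 and 8.71 FPKM in JIB-04 liver (limma adjusted p = 0.282).

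The genes whose pattern was nearest to Car14 over the 4 libraries, out of 9651 tested protein-coding genes, were Ren1, Serpina12, Cyp39a1 and Tcim. Likeness was the Euclidean distance between log2(FPKM + 1) profiles centred on each gene's mean, and it was 0.209, 0.271, 0.313 and 0.314 in that order. Cyp39a1, a hydroxylase of bile acid synthesis, was at 3.01 and 2.93 FPKM in untreated and at 0.489 and 0.4995 FPKM in JIB-04 liver. Ren1, the renin gene, was at 2.95 and 4.22 FPKM against 0.704 and 1.18 FPKM. Both were called lower by limma (adjusted p = 0.00528 and 0.0351). Because these genes were picked for likeness to Car14 in the same libraries, lower values follow from the choice and are no separate result. The Cyp39a1 call ended without JIB-04 1 (0.0696) and JIB-04 2 (0.0846), and the Ren1 call without untreated 2 (0.0903), JIB-04 1 (0.173) and JIB-04 2 (0.151). Serpina12 averaged 2.19 and 0.446 FPKM (adjusted p = 0.0738) and Tcim 12.1 and 4.52 FPKM (adjusted p = 0.123).

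The 250 bases before the transcription start are shown for Car14 and Car5a, which had the largest and the smallest change of the 6 tested genes. They are RefSeq sequences of GRCm38.p6, not the build of the expression table, both on the minus strand and written 5′ to 3′. RefSeq promoters were matched for 5 of the 10 genes (Car4, Car5a, Car5b, Car12 and Car14). Capitals mark a motif match.
Car14, chr3:95904686-95904935: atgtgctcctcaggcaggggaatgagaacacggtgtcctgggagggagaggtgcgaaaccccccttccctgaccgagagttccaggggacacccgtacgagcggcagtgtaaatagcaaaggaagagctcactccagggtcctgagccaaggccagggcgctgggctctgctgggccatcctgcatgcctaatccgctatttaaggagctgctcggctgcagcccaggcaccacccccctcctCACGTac
Car5a, chr8:121944913-121945162: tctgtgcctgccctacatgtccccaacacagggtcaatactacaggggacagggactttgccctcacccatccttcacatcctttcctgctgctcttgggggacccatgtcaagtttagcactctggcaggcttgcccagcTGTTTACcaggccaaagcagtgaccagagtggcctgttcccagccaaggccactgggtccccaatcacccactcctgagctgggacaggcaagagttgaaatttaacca
Both strands were searched for 4 motifs. The nuclear receptor site was written AGGTCA. The forkhead core was written TGTTTAC. The core of the hypoxia response element was written ACGTG. The TATA box was written TATAAA. Car14 held ACGTG on the reverse strand, from position -7 before the start, and Car5a held TGTTTAC, from position -109, while the windows of Car4, Car5b and Car12 held 0 matches. Among 32851 promoter windows of the same length, 16.6% held ACGTG, 3.17% TGTTTAC, 14.0% AGGTCA and 12.4% TATAAA. The windows of Car14 and Car5a were 62.0% and 56.0% G or C, against a median of 52.4% over all windows. A match is only the presence of these letters.

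Car8 was the other gene called lower, and its libraries were the most alike within groups. The untreated livers had 32.7 and 32.2 FPKM and the JIB-04 livers 20.5 and 19.8 FPKM, from 4622, 4686, 3382 and 2806 reads. The gap between the groups was wide beside the spread within them. The untreated mean was 1.61 times the JIB-04 mean (log2 change -0.66, SE 0.114, limma adjusted p = 0.0414), and 226 of the 10819 tested genes had a change this low or lower. The call was narrow. It ended without untreated 1 (adjusted p = 0.171), untreated 2 (0.1395), JIB-04 1 (0.154) and JIB-04 2 (0.197), with neither trend nor robust moderation (0.0620) and with no minimum level (0.232). The lowest adjusted p of any alternative was 0.00648. Car8 (ENSMUSG00000041261) lies on the minus strand of chromosome 4 from 8143362 to 8239041 (GRCm39) and overlaps the processed pseudogene Gm11799 by 460 bases on the same strand. Gm11799 averaged 1.31 and 0.934 FPKM (adjusted p = 0.448).

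**Figure D3:**
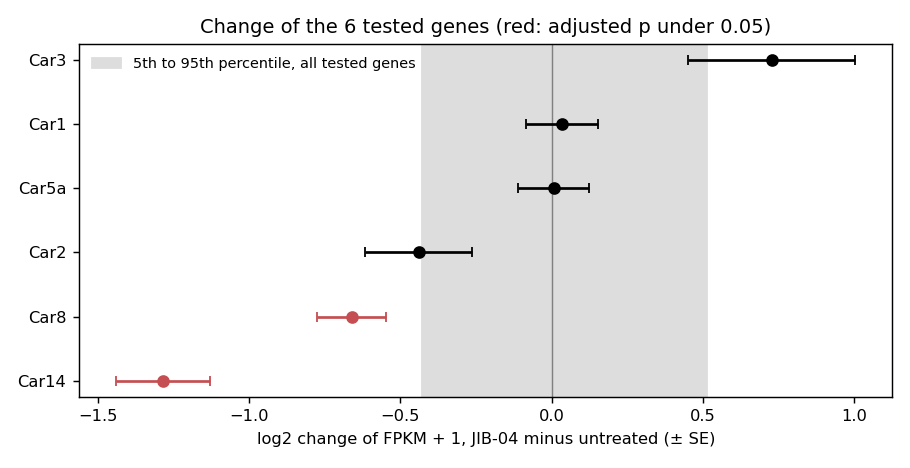
Log2 change of FPKM + 1, JIB-04 minus untreated, for the 6 tested genes with the standard error as a bar, and in grey the 5th to 95th percentile of all 10819 tested genes (-0.43 to 0.51). Car14 and Car8 (red, adjusted p under 0.05) lie below the grey band, Car3 lies above it without passing the test, and Car2 lies at its lower edge.

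Car3 encodes a cytosolic form of low activity that is abundant in liver, fat and skeletal muscle and is known as a gene of sex-biased expression in rodent liver. Its level was 279 and 449 FPKM in untreated 1 and 2 and 500.0 and 688 FPKM in JIB-04 1 and 2. The JIB-04 livers were both above the untreated ones, but the gap from untreated 2 to JIB-04 1 was smaller than the distance between mice of 1 group. The mean was 1.63 times the untreated mean (log2 change 0.73, SE 0.277, limma adjusted p = 0.300). It ranked 90 of 21970 protein-coding genes by mean FPKM and was counted with 29351, 48599, 61413 and 72422 reads. Left-out libraries moved the log2 change between 0.39 (without untreated 1) and 1.07 (without untreated 2).

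The genes nearest to Car3 by the same distance were Hacd1, Nqo1, Sgk2 and Rps18 (0.167, 0.232, 0.244 and 0.252), none of them called by limma. Nqo1, a quinone reductase of the oxidative stress response, was at 4.42 and 6.89 FPKM in untreated and 8.50 and 9.87 FPKM in JIB-04 liver (adjusted p = 0.190). Its order of mice was that of Car3, which follows from picking genes for likeness to Car3 in the same libraries. Hacd1, an enzyme of fatty acid elongation, averaged 2.77 and 5.31 FPKM (adjusted p = 0.152). Of 15 male-biased liver genes 11 were tested and 0 were called by limma or by voom. At an unadjusted limma p under 0.05 were 2 of them, against 15.5% of all tested genes, and the median log2 change was 0.04. The 2 genes at that p moved in opposite directions. Mup20 was at 6.26 and 7.59 FPKM in untreated and at 11.6 and 21.01 FPKM in JIB-04 liver (adjusted p = 0.179). Hsd3b5 was at 3.996 and 15.7 FPKM against 0.226 and 0.914 FPKM (adjusted p = 0.294). Mup12 ranged from 0.0294 FPKM in untreated 1 to 66.6 FPKM in JIB-04 2 (adjusted p = 0.555). Of the 11 tested male-biased genes only Mup20 and Mup12 had the same order of mice as Car3, and Mup12 had 1 read in untreated 1. Cyp2d9 and Slco1a1, the most abundant of the male-biased genes, averaged 40.0 and 47.7 FPKM and 106 and 87.8 FPKM in untreated and JIB-04 liver (adjusted p = 0.448 and 0.604).

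Skeletal muscle markers were high in 1 library only. Their summed level was 19.5 FPKM in untreated 1 and 0.543, 0.587 and 0.305 FPKM in untreated 2, JIB-04 1 and JIB-04 2. Acta1, skeletal actin, was at 8.11 FPKM in untreated 1 and at 0.0689, 0.137 and 0 FPKM in the others, and Ckm, muscle creatine kinase, at 0.964 FPKM in untreated 1 and at 0 in the other libraries. Of the 10 markers 1 was tested and 0 were called by limma or voom (0 at an unadjusted p under 0.05). Untreated 1 also had the lowest Car3 of the 4 libraries, and the part of muscle RNA in the Car3 values was not tested. Adipocyte markers differed in level from gene to gene. Adipoq was at 0.0987 FPKM in untreated 1 and 0 elsewhere, and Lep and Retn had 0 reads in all libraries. Fabp4 was at 0.702 to 1.16 FPKM, Lipe at 1.11 to 1.61 FPKM and Cidec at 1.67 to 4.43 FPKM over the libraries. The sum of all 10 fat markers, 964, 569, 456 and 722 FPKM in the order untreated 1, untreated 2, JIB-04 1 and JIB-04 2, was almost wholly Pck1, which hepatocytes express. Of 4 tested fat markers 0 were called by limma or voom, with Cidec, a lipid droplet protein, at an unadjusted limma p of 0.0143. Over all tested genes 15.5% were at an unadjusted limma p under 0.05.

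**Figure D4:**
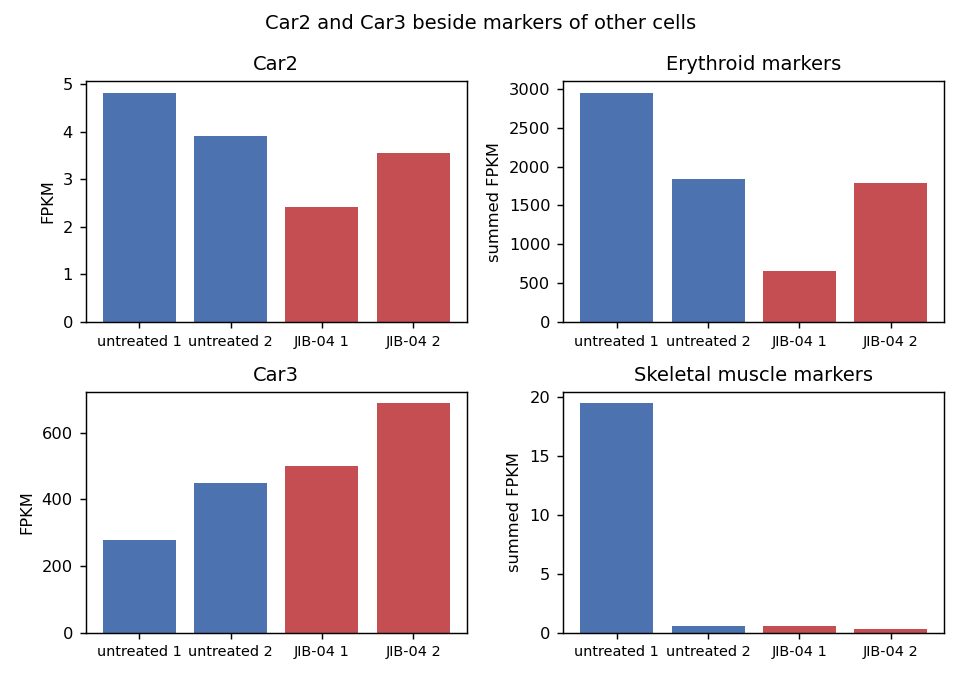
Car2 beside the summed FPKM of 13 erythroid markers, and Car3 beside the summed FPKM of 10 skeletal muscle markers, as bars from 0 for each liver (blue, untreated; red, JIB-04). Car2 and the erythroid sum are both highest in untreated 1 and lowest in JIB-04 1, and the muscle sum is 19.5 FPKM in untreated 1 and under 1 FPKM in the others.

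The genes of the red cell enzymes differed from each other. Car2 encodes the fast cytosolic enzyme of red cells, bile ducts and kidney. It was at 4.82 and 3.91 FPKM in untreated 1 and 2 and at 2.42 and 3.55 FPKM in JIB-04 1 and 2 (428, 358, 251 and 316 reads). The groups did not overlap, but JIB-04 2 lay closer to untreated 2 than to JIB-04 1, and the test was not passed (log2 change -0.44, SE 0.177, limma adjusted p = 0.302). Leaving out JIB-04 1 gave a change of -0.23, and leaving out JIB-04 2 one of -0.65. Car1, the other red cell enzyme, was at 4.94, 5.41, 5.23 and 5.41 FPKM in the same order, with overlapping groups (log2 change 0.04, SE 0.119, adjusted p = 0.936).

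Erythroid markers, which include the globins, summed to 2953 and 1845 FPKM in untreated 1 and 2 and to 655 and 1783 FPKM in JIB-04 1 and 2. The order of the 4 mice in this sum was that of Car2. Among the tested markers Hba-a1 and Alas2 departed from it, with JIB-04 2 above untreated 2. Alas2 was at 18.8 FPKM in untreated 2 and at 20.6 FPKM in JIB-04 2. Hba-a1, an alpha globin, was at 1596, 951, 357 and 953 FPKM, and Hbb-bs, a beta globin, at 1130, 737, 249 and 691 FPKM. Of the 13 erythroid markers listed, 5 were tested and 0 were called by limma, with 1 at an unadjusted p under 0.05, 1 called lower by voom and a median log2 change of -1.14. Over all tested genes 15.5% were at that p and 1.98% were called lower by voom. Slc4a1 and Epb42, which encode membrane proteins of red cells, were each under 1 FPKM in all libraries. The part of red cell RNA in the Car2 values was not tested. Bile duct markers did not pass either, with 2 of 10 tested and 0 called by limma or voom (0 at an unadjusted p under 0.05). Spp1, the most abundant of them, averaged 35.3 and 38.1 FPKM (adjusted p = 0.819), and the keratins Krt7 and Krt19 were under 1 FPKM in every library.

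Car13, Car1, Car3 and Car2 lie in this order within 259 kb of chromosome 3, from 14706787 to 14965830 (GRCm39). Within this cluster Car3 had the higher mean and Car2 the lower mean in JIB-04 liver, Car1 and Car13 had overlapping groups, and 0 were called by limma or voom. Car3 and Car2 are 13750 bases apart on the same strand. Car3 (ENSMUSG00000027559, 14928572 to 14937583) shares 555 bases with a long noncoding RNA on the other strand, ENSMUSG00000120173, which averaged 7.56 and 8.92 FPKM (adjusted p = 0.573). Car1 overlaps the pseudogene Gm16399 by 219 bases.

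Car5a encodes the mitochondrial enzyme of hepatocytes. Its level was 47.3 and 49.5 FPKM in untreated 1 and 2 and 50.2 and 47.1 FPKM in JIB-04 1 and 2, from 2317 to 2881 reads. The JIB-04 livers were the highest and the lowest of the 4, so the groups overlapped fully (log2 change 0.01, SE 0.118, limma adjusted p = 0.990). Centring on the median, quantile normalization, voom and TPM without the most abundant genes turned the sign, with log2 changes from -0.07 to -0.01. Car5a (ENSMUSG00000025317, chromosome 8, 122642865 to 122671643) shares 3565 bases with BC048644 on the other strand, which was at 0.958 and 1.05 FPKM on average.

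Car5b, the mitochondrial form of wider tissue range, was at 0.717 and 0.662 FPKM in untreated 1 and 2 and at 1.05 and 1.17 FPKM in JIB-04 1 and 2. The groups did not overlap, and the JIB-04 mean was 1.61 times the untreated mean. Its mean of 0.901 FPKM was under the minimum for testing, although the long gene (6354 bases) held 167, 159, 287 and 273 reads. With voom on all genes of at least 10 reads on average, chosen after the values were seen, its log2 change was 0.68 (adjusted p = 0.204).

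The other 3 untested genes were lower still, and Car4 and Car12 were at the limit of detection. Car13, a cytosolic form, was at 0.368 and 0.242 FPKM in untreated 1 and 2 and at 0.609 and 0.178 FPKM in JIB-04 1 and 2, from 15 to 60 reads, with overlapping groups. Car4, a form anchored by a lipid to the outer membrane and known from capillaries and kidney, had 3 reads in untreated 1 (0.0416 FPKM) and 0 in the other libraries, where 0 reads allow up to 0.0356 to 0.0416 FPKM. Car12, a transmembrane form of kidney and colon, had 0 reads in all 4 libraries, which allows up to 0.00921 to 0.0108 FPKM. These limits stand for 3 reads and cover counting error only.

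The remaining 6 genes of the family were not tested, since all were under 1 FPKM. Car9, a membrane form known as a hypoxia target, had 5, 4, 16 and 9 reads in untreated 1, untreated 2, JIB-04 1 and JIB-04 2, and Car7, a cytosolic form, 59, 51, 48 and 30 reads. Car6, Car11 and Car15 had at most 12 reads in any library, and Car10 had 0 in all.

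Genes that move or use bicarbonate and protons showed 0 calls by limma. Of 17 bicarbonate transporters 5 were tested, with 0 at an unadjusted p under 0.05, 0 called by voom and a median log2 change of 0.01. Slc26a1, an anion exchanger of hepatocytes, averaged 44.5 and 34.0 FPKM (adjusted p = 0.350), and Slc4a4, a sodium bicarbonate cotransporter, 6.89 and 6.57 FPKM (adjusted p = 0.931). Of 14 proton and lactate exporters 8 were tested, with 2 at an unadjusted p under 0.05, 1 called higher by voom and a median of 0.21. Over all tested genes 15.5% were at that p and 3.06% were called higher by voom. The 2 genes at that p were Slc16a1 and Bsg, both with JIB-04 higher. Slc16a1 was at 10.5 and 10.7 FPKM in untreated and at 15.3 and 15.7 FPKM in JIB-04 liver (limma adjusted p = 0.0766). Bsg, the partner protein of lactate transporters, averaged 220.2 and 293 FPKM (adjusted p = 0.288), and Slc9a3r1, a scaffold of membrane transporters, 109 and 129 FPKM (adjusted p = 0.460).

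Enzymes that take up bicarbonate, not all of them mitochondrial, were read beside Car5a. Of 9 carboxylases and carbamoyl phosphate synthases all were tested and 0 were called by limma or voom, with 2 at an unadjusted p under 0.05 and a median log2 change of 0.09. Cps1, the first enzyme of the urea cycle, averaged 516 and 431 FPKM (adjusted p = 0.612), and Pcx, pyruvate carboxylase, 118 and 121 FPKM (adjusted p = 0.927). Of 9 urea cycle and glutamine genes 0 were called by limma, with 5 at an unadjusted p under 0.05, 2 called lower by voom and a median of -0.18. Over all tested genes these shares were 15.5% at that p and 1.98% lower by voom. Ass1, argininosuccinate synthase, was at 591 and 807 FPKM in untreated and at 357 and 379 FPKM in JIB-04 liver (adjusted p = 0.0612), and Arg1, arginase, averaged 556 and 514 FPKM (adjusted p = 0.802).

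Markers of liver zones and of other liver cells were read beside the family. Of 10 tested pericentral hepatocyte genes Oat, ornithine aminotransferase, rose from 143 ± 15.1 to 297 ± 36.6 FPKM (SD, n = 2; limma adjusted p = 0.0248) and Slc13a3, a dicarboxylate transporter, fell from 13.1 ± 3.41 to 5.91 ± 0.237 FPKM (adjusted p = 0.0469). Glul, glutamine synthetase, averaged 257 and 212 FPKM (adjusted p = 0.513), and Cyp2e1, a cytochrome P450, 3295 and 2879 FPKM (adjusted p = 0.771). Slc1a2, a glutamate transporter, was at 11.4 and 9.77 FPKM in untreated and at 6.69 and 6.66 FPKM in JIB-04 liver (adjusted p = 0.0730). Of these 10 genes 3 were at an unadjusted p under 0.05 (15.5% of all tested genes), voom called 1 higher and 2 lower, and the median log2 change was -0.19. Of 12 periportal genes Etnppl, a phospholyase, fell from 5.82 ± 1.74 to 1.05 ± 0.170 FPKM (limma adjusted p = 0.0125), and limma called 0 higher. Of these 12 genes 6 were at an unadjusted p under 0.05, voom called 1 higher and 3 lower, and the median was -0.09. Over all tested genes 15.5% were at that p. Voom called 3.06% of them higher and 1.98% lower, and limma 1.53% higher and 0.619% lower. Cyp2f2, a cytochrome P450, was at 213 and 245 FPKM in untreated and at 323 and 406 FPKM in JIB-04 liver (adjusted p = 0.110), and Cdh1, which encodes E-cadherin, at 5.76 and 5.86 FPKM against 7.89 and 9.09 FPKM (adjusted p = 0.123). Others of the list were lower, among them Ass1, given above. Gls2 was at 85.5 and 103 FPKM in untreated and at 65.5 and 64.1 FPKM in JIB-04 liver (limma adjusted p = 0.123). Sds was at 51.7 and 62.8 FPKM against 34.5 and 44.2 FPKM (limma adjusted p = 0.186). The Oat call ended without untreated 2 (0.0731), JIB-04 1 (0.125) and JIB-04 2 (0.192), the Slc13a3 call without untreated 1 (0.116), JIB-04 1 (0.224) and JIB-04 2 (0.271), and the Etnppl call without JIB-04 1 (0.149) and JIB-04 2 (0.153).

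Hepatocyte markers (10 tested) had 0 called by limma or voom, 1 at an unadjusted p under 0.05 and a median log2 change of -0.13. Apoa1, the main protein of HDL, averaged 6967 and 5971 FPKM (adjusted p = 0.694). Endothelial (9 tested), macrophage (10) and stellate cell markers (8) had 0 called by limma, with 0, 1 and 2 at an unadjusted p under 0.05 and 0, 1 and 1 called lower by voom. Their medians were -0.09, -0.19 and -0.21. Over all tested genes 15.5% were at an unadjusted p under 0.05 and 1.98% were called lower by voom. Clec4g of sinusoidal endothelium averaged 34.4 and 31.9 FPKM (adjusted p = 0.868), and Oit3, from the same list, 9.59 and 9.88 FPKM (adjusted p = 0.934). Clec4f of Kupffer cells averaged 107 and 95.6 FPKM (adjusted p = 0.656) and Cd5l of macrophages 103 and 101 FPKM (adjusted p = 0.966). From the stellate list, Ecm1 averaged 46.8 and 36.1 FPKM (adjusted p = 0.314) and Colec11 32.8 and 31.5 FPKM (adjusted p = 0.939). Lrat, also of that list, was at 5.35 and 5.15 FPKM in untreated and at 3.10 and 3.03 FPKM in JIB-04 liver (limma adjusted p = 0.0549). Lyz2 of the macrophage list averaged 72.1 and 45.0 FPKM (limma adjusted p = 0.106). Among tested stellate markers only Col3a1 had the higher mean in JIB-04 liver, 2.81 and 3.68 FPKM (limma adjusted p = 0.597).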

How the data were processed

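Liver RNA of 4 mice was sequenced, 2 per group, and groups follow the treatment label. The authors deposited FPKM values per gene with gene lengths. Builds GRCm39 and mm39 are named per the submitters' processing notes. No aligner, counter, annotation release or strandedness is named in the labels used here. Reads were recovered from FPKM and length, since 100% of the products fell on whole reads (tolerance 0.01). The depth used in the FPKM was 0.997 and 1.02 times these reads in untreated 1 and 2. In JIB-04 1 and 2 it was 0.990 and 1.01 times these reads, so it was not the plain read total.

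Genes with a mean of at least 1 FPKM were fitted on log2(FPKM + 1) with limma 3.58.1 (R 4.3.3), moderated with its trend and robust options. Tests were two-sided. The fit left 2 residual degrees of freedom per gene, and the moderation added to them degrees of freedom drawn from all tested genes. P-values were adjusted over all tested genes. The log2(FPKM + 1) scale understates changes of low genes. The fit was tested on simulated data. An exact permutation test of 2 against 2 was not used, since it cannot reach the threshold.

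The members and gene lists were chosen with earlier results of these data known. Genes named are all members, the other family genes, from each list up to 3 called genes of lowest p and the 2 most abundant (with further markers chosen after their values were seen), and the 4 nearest patterns to Car3 and Car14. Voom, other scalings, filters, pseudocounts, a block and left-out libraries were the alternatives. Some marker genes under this rule are not reported here.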

Additional observations from a re-analysis of the deposited data

How the results depend on the processing

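The number of carbonic anhydrase genes called lower (2) was 0 without the filter on low values, 1 with a mean of at least 5 FPKM (which leaves Car14 out), 1 with neither trend nor robust moderation, and 0 to 1 without each library in turn. The number called higher (0) was 1 with the replicate block, where Car3 had an adjusted p of 0.0486. The labels share replicate numbers between groups but do not say that a number pairs mice, and the deviations of equal numbers had a correlation of -0.05 across 10819 genes, so the fit without the block was kept. Over all genes, 165 were called higher and 67 lower, against 20 and 0 without the filter, 331 and 214 with voom, 383 and 231 with voom at a mean of 10 reads or more, and 236 and 121 with the replicate block. Without each library in turn they ranged from 22 to 107 higher and from 1 to 54 lower. Higher genes were 71.1% of calls, but 60.7% with voom, 60.7% with TPM computed after removing mitochondrial genes and the 50 most abundant (a scaling chosen after seeing the data, as was the 10-read minimum) and 100% without the filter. Car1 and Car5a, both near 0, changed sign: Car1 to -0.0138 with that TPM scaling and over -0.0196 to 0.0904 without single libraries, Car5a to -0.00590 with centring on the median, -0.0675 with quantile normalization, -0.00800 with voom and -0.0498 with that TPM scaling, and over -0.0381 to 0.0510 without single libraries. Car14, Car8, Car2 and Car3 kept their direction in all alternatives in which they had a value (15, 16, 15 and 16). Their groups did not overlap, so left-out libraries and other pseudocounts could not turn the sign. Filters, moderation and the block left the log2 change as it was. Only voom and the other scalings could have turned it. Except as named above, the cause of a changed count was not tested. With 2 mice per group, leaving out 1 leaves its group with a single mouse, whose variance is taken from the other group.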
